A study of Homo sapiens with 3 samples.

Results

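The genes described here are 40 genes of ribosome biogenesis and MYC target genes, chosen by name with earlier results of these data known. Every probe that the platform's annotation gives to them was read. A gene's value below is that of its brightest probe unless a sentence names another. Of the 40, 37 had at least 1 named probe, 52 probes in all, and 36 were detected on at least 1 array at a detection p-value under 0.01, out of 20045 genes with a named probe and 12895 detected genes. PHB is annotated as PHB1, its current symbol, and GNL3, WDR43 and EBNA1BP2 were not analysed here because no named probe was found for them. The single probe named for the nucleolar chaperone gene NPM1 was detected on none of the 3 arrays, so NPM1 has no usable value. A filter on dim signals therefore left 36 of the 40 genes, and every count below is over these 36.

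Total RNA of MDA-MB-231, a triple-negative human breast cancer cell line with mesenchymal traits, was labelled with Cy3 and hybridised to 3 Illumina bead arrays, 1 per group. One culture had received an expression vector for FBP1 (fructose-1,6-bisphosphatase 1, an enzyme of gluconeogenesis), a second the empty vector, and the third is a control that the labels call wt without saying how it was handled; they are called FBP1, empty vector and wt cells below. All 3 share the cell line and the growth medium with serum, and the labels name no selection, clone or time after transfection. With 1 array per group there is no spread between replicates, no test and no p-value for any comparison, so every difference is one between 2 arrays. Between 41.8% and 42.0% of probes were detected on each array, and the median deposited intensities were 91.7 in FBP1 cells, 94.6 in empty vector cells and 93.7 in wt cells. Levels below are background-corrected, quantile-normalised log2 intensities and differences are in log2 units, unless a sentence names the deposited intensity or a fold.

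The FBP1 gene itself had deposited intensities of 1063.5 in FBP1 cells, 678.6 in empty vector cells and 530.8 in wt cells, so it was detected in the controls too and was 1.79-fold above empty vector cells. FBP1 cells stood apart from both controls on genes that mark the cell line. All 8 genes chosen as high in MDA-MB-231 cells, among them VIM and CD44, were detected on all 3 arrays. Of 8 genes chosen as low or absent in these cells, 4 were detected in FBP1 cells, 0 in empty vector cells and 1 in wt cells. The 4 were CDH1, CDKN2A, MTAP and PHGDH, while ESR1, GATA3, PGR and TFF1 were detected on no array. CDKN2A and MTAP lie in a region known to be deleted in this line. Both were dim in FBP1 cells, with deposited intensities of 120.6 and 107.5, below the highest undetected intensity of that array, 143.2. PHGDH was the gene also detected in wt cells, with deposited intensities of 322.0 in FBP1 cells and 104.4 in wt cells. The summed deposited intensity of the 8 genes was 1032 in FBP1 cells, 724 in empty vector cells and 711 in wt cells. Detection of CDKN2A and MTAP, dim as it was, goes against the cell line named in the labels. Whether the array labelled FBP1 holds MDA-MB-231 cells alone is therefore in doubt and was not tested. The name "FBP1 cells" below means the culture so labelled.

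Some markers of luminal epithelium were also higher in FBP1 cells, and others were not. Of 12 such genes 8 were detected in FBP1 cells and 6 in each control, with summed deposited intensities of 6648 in FBP1 cells, 5943 in empty vector cells and 5519 in wt cells. Between FBP1 and empty vector cells 8 were tested, with a median of 0.50. Of these, 4 were at least 1.5-fold higher (6.56% of all genes) and 0 lower (5.91%). CDH1, which is on both lists, and FOXA1 were detected in FBP1 cells alone and were at least 3.6-fold and 3.4-fold higher. AGR2 stood at 1.34 and XBP1 at 0.59. Of the rest, EPCAM stood at 0.41, KRT19 at 0.07, KRT18 at 0.05 and KRT8 at -0.51. Among blood cell markers CD14 stood at 1.04. The part of these differences in the results below was not tested. The comparison of empty vector cells with wt cells takes no value from FBP1 cells. However, all 3 arrays were normalised together and entered the choice of each gene's probe.

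Ribosomes are made in the nucleolus, where RNA polymerase I transcribes a long precursor RNA that small nucleolar RNPs modify and that assembly factors fold, cut and load with proteins. One set of factors builds the small subunit and another the large subunit, and both are exported to the cytoplasm to be finished. MYC, a transcription factor that binds E-box sequences together with MAX, is known to drive many of these genes along with enzymes of polyamine and nucleotide synthesis, which ties ribosome production to growth.

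The E-box letters CACGTG, the core motif of MYC and MAX, were looked for in the promoters of these genes, from 250 bases before to 50 bases after the start site in RefSeq's table for build GRCh38.p14. The motif reads the same on both strands, and no other motif was searched. Promoters of 34 of the 40 genes were in the table, and 13 of the 34, or 38.2%, held CACGTG, against 8.88% of the 15843 promoters of protein-coding genes and 10.1% of the 10026 whose genes were detected here. Among the further ribosome assembly, MYC target and related genes described at the end, 48 of 180 promoters, or 26.7%, held it, so a raised share is not particular to the 40 genes. In 11 of the 34 promoters, 32.4%, the motif began within 40 bases of the start site, against 2.68% of all protein-coding promoters and 3.34% of those of detected genes, a distance chosen after the positions were seen. A match is a description of the sequence and not evidence that MYC bound there in these cells.

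The following sequences are 90 bases of each promoter that held the motif and whose gene was at least 1.5-fold lower in FBP1 cells than in wt cells. They run 5′ to 3′ on the gene's strand with CACGTG in capitals. The first 5 run from 65 bases before the start site to 25 bases after it, and the last, of SRM, lies further upstream, from 241 to 152 bases before it.
NLE1: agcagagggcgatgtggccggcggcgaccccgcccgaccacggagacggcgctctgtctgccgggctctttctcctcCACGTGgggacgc
MRTO4: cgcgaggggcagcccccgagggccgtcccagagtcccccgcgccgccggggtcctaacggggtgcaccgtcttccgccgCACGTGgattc
PNO1: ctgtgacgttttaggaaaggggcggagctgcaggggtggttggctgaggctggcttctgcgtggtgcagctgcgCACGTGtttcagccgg
UTP20: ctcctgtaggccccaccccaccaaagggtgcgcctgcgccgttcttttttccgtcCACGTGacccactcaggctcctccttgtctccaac
FBL: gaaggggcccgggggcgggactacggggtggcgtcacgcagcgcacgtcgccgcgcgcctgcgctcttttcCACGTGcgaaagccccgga
SRM: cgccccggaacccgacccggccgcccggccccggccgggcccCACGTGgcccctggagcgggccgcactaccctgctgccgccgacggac

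The windows lie at chr17:35142279-35142368 on the minus strand for NLE1, chr1:19251740-19251829 on the plus strand for MRTO4, chr2:68157823-68157912 on the plus strand for PNO1, chr12:101280040-101280129 on the plus strand for UTP20, chr19:39846355-39846444 on the minus strand for FBL and chr1:11060170-11060259 on the minus strand for SRM. The motif began 13 bases after the start site in NLE1, 15 in MRTO4, 10 in PNO1 and 7 in FBL, counting the start site as base 1, and 10 bases before it in UTP20. In SRM it began 199 bases before the start site.

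Most of the 36 genes were lower in FBP1 cells than in either control, and their median was also lower in empty vector cells than in wt cells. The median difference was -0.26 between FBP1 and empty vector cells, -0.45 between FBP1 and wt cells and -0.25 between empty vector and wt cells, while the medians of all genes tested were -0.01, 0.00 and 0.01. Lower values at any size were found for 30 of 36 genes in FBP1 cells against empty vector cells (50.9% of all genes), for 35 of 36 against wt cells (49.4% of all genes), and for 29 of 36 in empty vector cells against wt cells (48.9% of all genes). These counts fell to 20, 26 and 24 with arrays scaled on their median, a setting that moved all genes upward in FBP1 cells.

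At a size of 1.5-fold, 5 of the 36 genes were lower in FBP1 cells than in empty vector cells (5.91% of 12413 genes tested) and 0 were higher (6.56%). Against wt cells 17 were lower (7.81% of 12404 genes) and 0 higher (8.76%). In empty vector cells against wt cells 3 were lower (3.18% of 12344 genes) and 0 higher (3.83%). The last share of 3 in 36 rests on few genes. The counts depended on the processing: the 5 became 2 with the authors' processed values and 3 with no background correction or with median scaling, and the 17 became 9, 10 and 3 in these settings. The shares of all genes at least 1.5-fold lower fell too. They were 1.13%, 1.71% and 2.92% against empty vector cells, and 2.07%, 2.78% and 2.35% against wt cells. The 5 genes were NLE1, NOC2L, ODC1, SRM and PPAN, each of which was at least 1.5-fold below wt cells as well, and the share of all detected genes at least 1.5-fold below both controls was 3.04%.

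**Figure D1:**
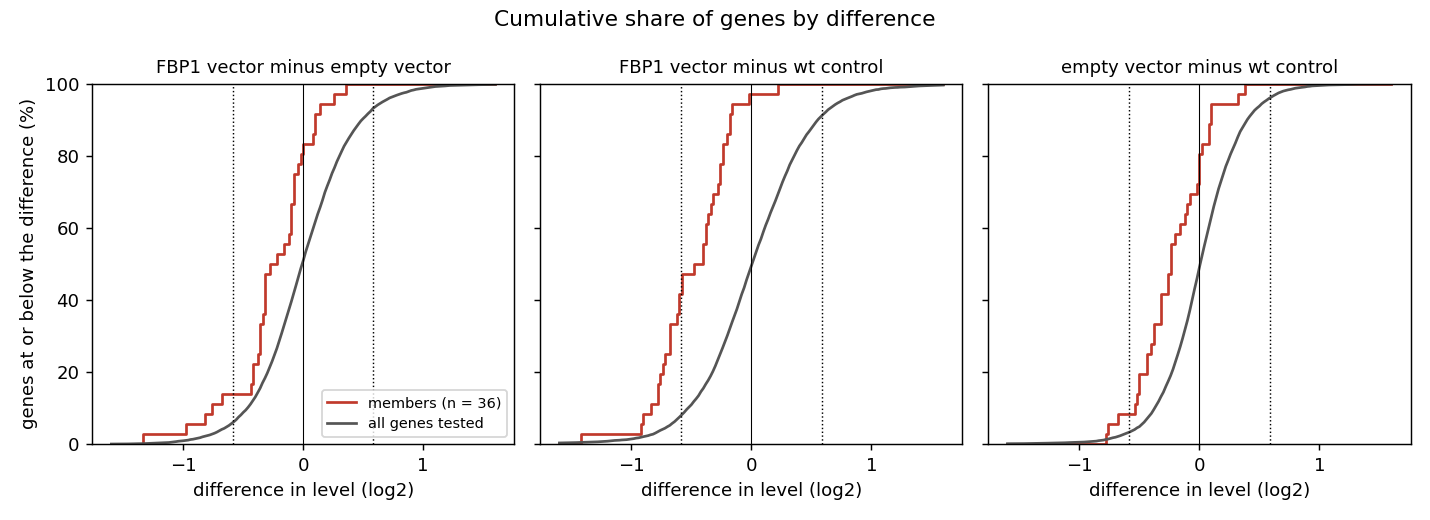
Each panel plots, for 1 comparison, the percentage of genes (y axis) at or below a given difference in log2 level (x axis), for the 36 detected members in red and all genes tested in grey; dotted lines mark 1.5-fold. The red curve lies left of the grey one in all 3 panels, and farthest left for FBP1 cells against wt cells, where the median is -0.45.

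In the reported setting, the gap between FBP1 and wt cells was split almost evenly between both steps. These are the step from empty vector to FBP1 cells and the step from wt to empty vector cells. The mean difference over the 36 genes was -0.27 for FBP1 cells against empty vector cells and -0.23 for empty vector cells against wt cells. The FBP1 step was the lower one for 19 genes and the empty vector step for 17, and the FBP1 step was the lower one for 50.8% of all detected genes. Both steps use empty vector cells with opposite sign, so an odd value of that array would lower one step and raise the other. The split depended on the processing. The medians of the FBP1 and empty vector steps, -0.26 and -0.25 as reported, became -0.14 and -0.18 with the authors' processed values. They were -0.17 and -0.23 with scaling on the 75th percentile, and -0.045 and -0.18 with median scaling. By the dimmest detected probe they were -0.32 and -0.23.

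The order FBP1 cells below empty vector cells below wt cells was found for 23 of the 36 genes, against 21.5% of all detected genes. It was found for 9 genes with arrays scaled on their median and for 21 to 24 in the other 10 alternative settings. In 6 genes empty vector cells were lowest and FBP1 cells in the middle (11.4% of all genes), in 6 FBP1 cells were lowest and empty vector cells highest (16.7%), and POLR1A alone was lowest in wt cells with FBP1 cells in the middle (12.8%). No member was highest in FBP1 cells, whether with empty vector cells lowest (16% of all genes) or with wt cells lowest (21.6%), and 29 of the 36 were lower in FBP1 cells than in both controls (38.1%). The shares of all genes with both steps down, only the empty vector step down, only the FBP1 step down and neither down were 21.4%, 27.4%, 29.5% and 21.7%, against 23, 6, 7 and 0 of the 36 members. None of the 36 was at least 1.5-fold lower in both steps, since the 3 genes past that size between the controls, NOLC1, DDX21 and TSR1, were not among the 5 past it in the FBP1 step.

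**Figure D2:**
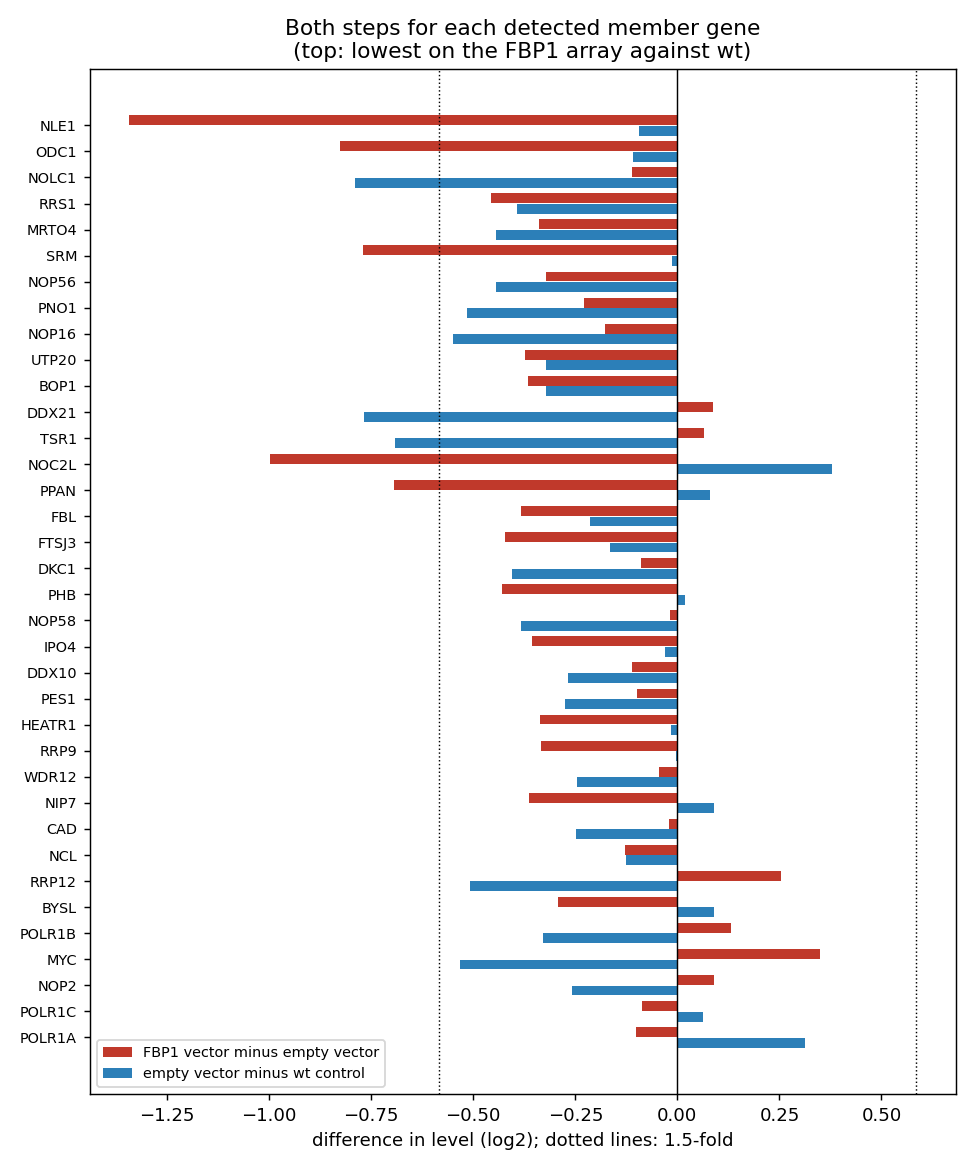
Bars give each detected member's difference in log2 level for FBP1 cells minus empty vector cells (red) and empty vector cells minus wt cells (blue), with genes ordered from the lowest to the highest in FBP1 cells against wt cells; dotted lines mark 1.5-fold. NLE1, ODC1, SRM, NOC2L and PPAN have long red bars to the left and short blue ones or blue ones to the right, whereas NOLC1, DDX21 and TSR1 have long blue bars to the left and red bars within 0.12 of 0.

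MYC itself was highest in wt cells and lowest in empty vector cells. Its deposited intensity was 2185.8 in FBP1 cells, 1882.6 in empty vector cells and 2764.4 in wt cells, which became levels of 11.15, 10.80 and 11.33. FBP1 cells were 1.27-fold above empty vector cells and 1.13-fold below wt cells, so MYC was the member farthest above empty vector cells while the median of its target genes stood below it. A second MYC probe gave the same order, with intensities of 982.8, 934.2 and 1232.4 in FBP1, empty vector and wt cells.

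The polyamine genes ODC1 and SRM were lower in FBP1 cells and nearly equal in the controls. ODC1, ornithine decarboxylase and the rate-limiting enzyme of the pathway, had intensities of 1215.2 in FBP1 cells, 2260.8 in empty vector cells and 2524.0 in wt cells, and was 1.77-fold below empty vector cells and 1.91-fold below wt cells. SRM, spermidine synthase, had intensities of 377.6, 639.5 and 667.6 in the same order and was 1.70-fold and 1.72-fold lower. Empty vector and wt cells differed by 1.08-fold for ODC1 and 1.01-fold for SRM, so for both genes FBP1 cells were the ones apart. ODC1 kept a size of 1.5-fold against empty vector cells in 11 of 11 alternative settings and SRM in 10 of 11.

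Other genes of the pathway did not share this. Over 10 further polyamine genes, all tested, the median was 0.05 between FBP1 and empty vector cells and 0.06 between empty vector and wt cells. None of the 10 was 1.5-fold away from empty vector cells (5.91% of all genes lower and 6.56% higher). The lowest, OAZ2, which encodes an antizyme that restrains ODC1, stood at -0.54 while ARG2, an arginase that makes ornithine, stood at 0.57. Against wt cells OAZ2 was higher by 0.77 in empty vector cells and by 0.23 in FBP1 cells. ARG2 stood at -0.42 and 0.16 in the same comparisons. SAT1, which acetylates polyamines for export or breakdown, was higher in FBP1 cells than in wt cells by 1.08 and in empty vector cells than in wt cells by 0.70. CAD, which starts pyrimidine synthesis, had levels of 7.29 in FBP1 cells, 7.32 in empty vector cells and 7.56 in wt cells, so its lower value was shared by both transfected cultures.

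Among the nucleolar scaffold and chaperone genes, NOLC1 was low in both transfected samples. NOLC1, which escorts small nucleolar RNPs, had intensities of 270.3 in FBP1 cells, 309.0 in empty vector cells and 493.6 in wt cells. FBP1 cells were 1.08-fold below empty vector cells and empty vector cells 1.73-fold below wt cells, the lowest value of the 36 genes in that step. NCL, which encodes nucleolin, one of the most abundant nucleolar proteins, was the brightest member, with levels of 11.47, 11.60 and 11.73 in FBP1, empty vector and wt cells and differences of -0.13 in each step.

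The 3 RNA polymerase I subunit genes among the members had no common direction. POLR1A and POLR1B, the 2 largest subunits, were dim, with deposited intensities between 89.8 and 123.8 on all 3 arrays, and POLR1A was not detected in wt cells, where empty vector cells were at least 1.2-fold higher. POLR1C, a subunit shared with RNA polymerase III, had levels of 10.04 in FBP1 cells, 10.12 in empty vector cells and 10.06 in wt cells. POLR1B had levels of 5.49, 5.36 and 5.69 in FBP1, empty vector and wt cells. None of the 3 was 1.5-fold apart between any 2 arrays.

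The proteins of the small nucleolar RNPs, which guide methylation, pseudouridylation and cutting of the precursor RNA, were lowest in FBP1 cells in all 5 members and highest in wt cells. FBL, the methyltransferase of the box C/D particles, had intensities of 1946.0 in FBP1 cells, 2731.3 in empty vector cells and 3194.7 in wt cells. NOP56, a core protein of the same particles, had intensities of 1724.2, 2313.3 and 3204.0, and was 1.25-fold below empty vector cells and 1.70-fold below wt cells. For both genes empty vector cells lay between the others, 1.16-fold below wt cells for FBL and 1.36-fold for NOP56 by its brightest probe. Of the other NOP56 probes, one stood at -0.29 in the FBP1 step and -0.345 in the empty vector step. The remaining one stood at -0.61 and -0.045, so by that probe empty vector cells were close to wt cells.

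Their partner genes differed in which step carried the gap. NOP58, which pairs with NOP56, had levels of 9.75 in FBP1 cells, 9.77 in empty vector cells and 10.16 in wt cells, and DKC1, the pseudouridine synthase of the box H/ACA particles, had levels of 10.79, 10.88 and 11.29. RRP9, a protein of the U3 particle, had levels of 5.14, 5.47 and 5.48 and was dim. NOP58 and DKC1 were thus low in both transfected samples, RRP9 only in FBP1 cells, but with sizes of at most 0.50 none of these reached 1.5-fold.

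The 8 measured genes of the small subunit were all below wt cells in FBP1 cells, with a median of -0.50. In 4 of them the size was at least 1.5-fold (7.81% of all genes). This size against wt cells remained in 10 of 11 alternative settings for DDX21 and 8 of 11 for PNO1. It remained in 4 of 11 for TSR1 and 4 of 10 for UTP20. The medians of the steps were -0.17 between FBP1 and empty vector cells and -0.42 between empty vector and wt cells. DDX21, a nucleolar RNA helicase, had intensities of 1442.2 in FBP1 cells, 1470.3 in empty vector cells and 2548.6 in wt cells, so that both transfected samples were low and empty vector cells were 1.70-fold below wt cells. The size of 1.5-fold in the empty vector step remained in 11 of 11 alternative settings for DDX21 and NOLC1 and in 7 of 11 for TSR1. PNO1, a late assembly factor, had intensities of 227.8, 274.9 and 367.6 in FBP1, empty vector and wt cells and was 1.67-fold below wt cells in FBP1 cells.

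Other small subunit genes went along with DDX21 or with the FBP1 step. TSR1, a factor of late pre-40S particles, had levels of 8.10 in FBP1 cells, 8.04 in empty vector cells and 8.73 in wt cells by its brightest probe, and RRP12 had levels of 8.04, 7.78 and 8.29, so that both were lowest in empty vector cells. HEATR1, an early factor that binds the nascent precursor, had levels of 8.35, 8.69 and 8.70 in the same order, and BYSL had 9.25, 9.54 and 9.45, with FBP1 cells lowest for both. The helicase gene DDX10 had levels of 10.06, 10.17 and 10.44. UTP20, a scaffold of the early particle, was dim, was not detected in FBP1 cells, and was at least 1.3-fold lower there than in empty vector cells and at least 1.6-fold lower than in wt cells.

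The 12 measured genes of the large subunit held 3 of the 5 genes at least 1.5-fold below empty vector cells (5.91% of all genes). In that step 11 of the 12 stood below 0 (50.9% of all genes). All 12 were below wt cells in FBP1 cells, 8 of them by at least 1.5-fold (7.81% of all genes), with a median of -0.62. Of the 8, PPAN, NOC2L and FTSJ3 each kept that size against wt cells in 5 of 11 alternative settings. MRTO4 kept it in 9 of 11, and NLE1, NOP16, RRS1 and BOP1 in 10 of 11 each. The medians of the steps were -0.36 between FBP1 and empty vector cells and -0.25 between empty vector and wt cells. NLE1, which acts in late remodelling of the pre-60S particle, had intensities of 96.1 in FBP1 cells, 152.1 in empty vector cells and 156.0 in wt cells, and its levels were 2.54-fold below empty vector cells and 2.71-fold below wt cells, the lowest of the 36 genes. Its signal in FBP1 cells lay close to the background, with a detection p-value of 0.00455, and the size ranged from -1.34 to -0.50 over 11 alternative settings.

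NOC2L, a factor that accompanies pre-60S particles, had intensities of 116.3 in FBP1 cells, 172.4 in empty vector cells and 147.8 in wt cells, and PPAN, named after a fly gene needed for growth, had 131.8, 180.3 and 174.0. NOC2L was 2.00-fold and PPAN 1.62-fold below empty vector cells, and 1.53-fold each below wt cells. Both are dim, and a size of 1.5-fold against empty vector cells remained in 8 of 11 alternative settings for NOC2L and in 5 of 11 for PPAN. PPAN is also transcribed together with its neighbour P2RY11, which the platform reads with another probe.

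BOP1, RRS1 and MRTO4 were graded over the 3 arrays. BOP1, which forms a complex with PES1 and WDR12, had intensities of 1243.7 in FBP1 cells, 1710.7 in empty vector cells and 2193.0 in wt cells, and was 1.29-fold below empty vector cells and 1.61-fold below wt cells. By their brightest probes its partners stood closer to 0 in FBP1 cells. PES1 was 1.07-fold and 1.29-fold lower and WDR12 was 1.03-fold and 1.22-fold lower. For WDR12 this depended on the probe, since its other probe stood at -0.45 against empty vector cells and -0.62 against wt cells. BOP1 stood at -0.37 and -0.69. RRS1, which helps to place the 5S RNA particle, had intensities of 313.8, 436.7 and 566.1 in FBP1, empty vector and wt cells and was 1.80-fold below wt cells. MRTO4, which holds the place of a stalk protein during assembly, had intensities of 280.8, 362.0 and 479.4 and was 1.72-fold below wt cells. In none of the 3 did either step reach 1.5-fold.

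Of the other large subunit genes, NOP16 had levels of 8.94 in FBP1 cells, 9.12 in empty vector cells and 9.67 in wt cells, FTSJ3, an RNA methyltransferase, had 7.63, 8.05 and 8.21, and NIP7 had 9.77, 10.13 and 10.04. NOP2, an RNA methyltransferase, had 10.12, 10.03 and 10.29 by its brightest probe. By that probe it was the only large subunit gene above 0 in the FBP1 step, at 0.09. The gap of NOP16 lay mainly between the controls and that of FTSJ3 and NIP7 mainly in the FBP1 step. FTSJ3 at -0.59 was the gene just past 1.5-fold against wt cells, and DKC1 at -0.49 the nearest one short of it. IPO4 and PHB, listed apart from the assembly factors, were lower in FBP1 cells and nearly equal in the controls. The importin gene IPO4 had levels of 7.54, 7.90 and 7.93 in FBP1, empty vector and wt cells, and PHB, which encodes prohibitin of the inner mitochondrial membrane, had 10.24, 10.67 and 10.65.

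**Figure D3:**
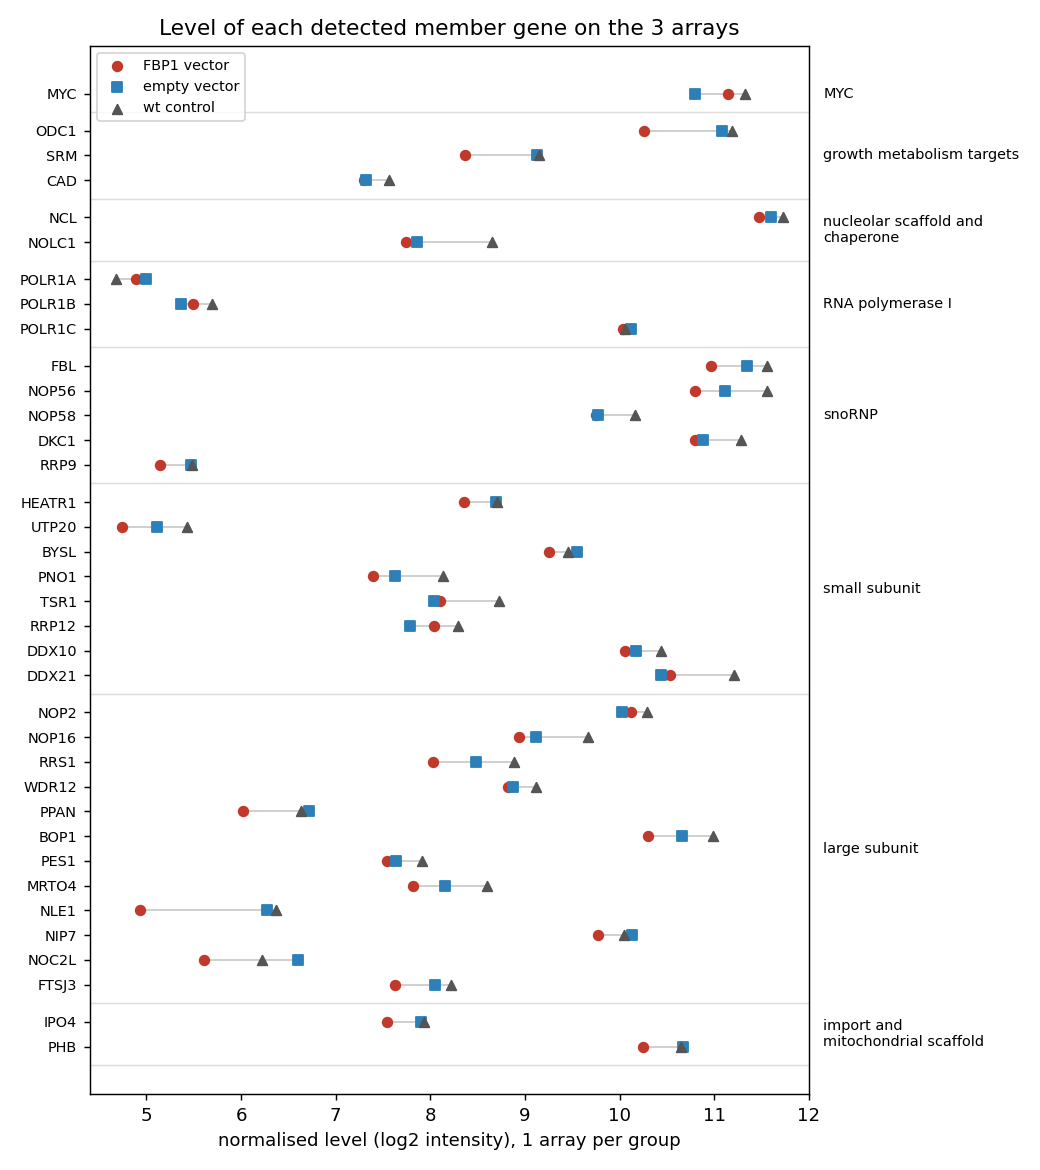
Points give the normalised log2 level (x axis) of each of the 36 detected members in FBP1 cells (red circles), empty vector cells (blue squares) and wt cells (grey triangles), grouped by role and joined by a line; there is 1 array per group. Red circles are leftmost for most genes, blue squares sit beside the red circles for NOLC1, DDX21 and TSR1, and they sit beside the triangles for ODC1, SRM and NLE1.

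Some members are read by several probes, which shows how far a difference depends on the probe. Of the 36 genes, 10 had 2 or more detected probes, and in 9 of the 10 all probes stood on the same side of 0 between FBP1 and empty vector cells. The exception was NOP2, at 0.09 by its brightest probe, 0.07 by a dim one, and -0.22 and -0.20 by the others. The largest disagreement in that comparison was in NLE1, at -1.34 and -0.56. TSR1 stood at -0.69 by its bright probe and -0.02 by a dim one between empty vector and wt cells, and NOP2, with 4 detected probes, stood between -0.55 and 0.23. NOP56 was below 0 by all 3 of its probes in both steps, and NOP16 by both of its probes.

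Among all 2677 genes with 2 or more probes detected on every array, the median gap between probes of a gene was 0.23 for FBP1 cells against empty vector cells and 0.20 for empty vector cells against wt cells, and 1 in 10 gaps exceeded 0.65 and 0.55. Single differences of the size seen for most members are thus within the range by which probes of 1 gene differ, and probes of 1 array do not replace replicate cultures.

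**Figure D4:**
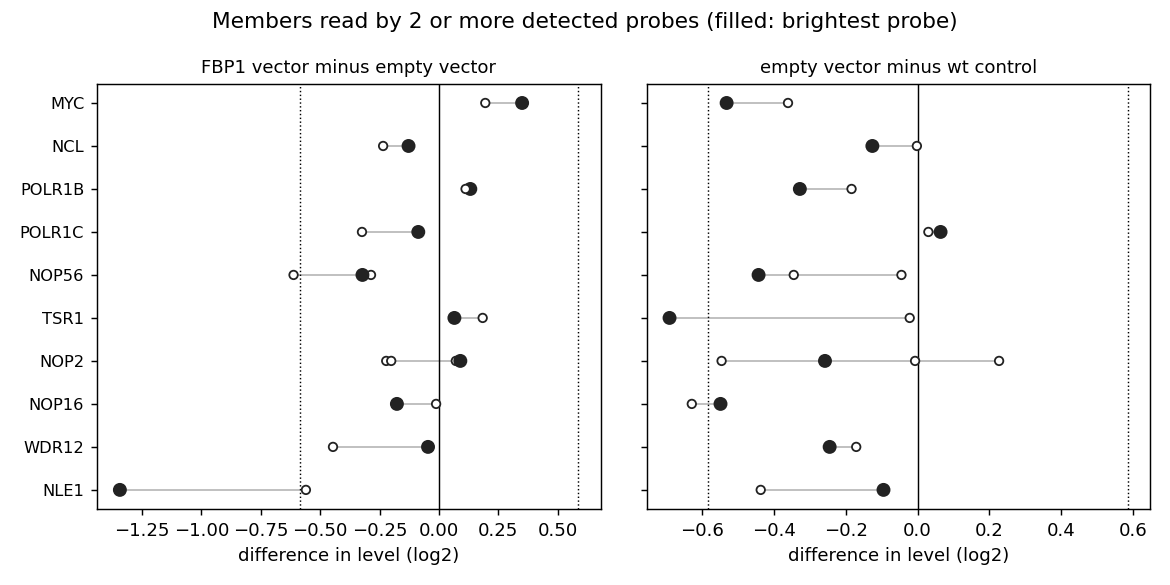
Each point is the difference in log2 level by 1 detected probe, for the 10 members with 2 or more such probes, with the brightest probe filled; the left panel gives FBP1 cells minus empty vector cells and the right panel empty vector cells minus wt cells, and dotted lines mark 1.5-fold. The probes of NLE1 lie far apart in the left panel and those of TSR1 and NOP2 in the right panel.

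Further genes of ribosome assembly, taken from lists drawn up by function, had medians below 0 too, but closer to 0 than the 36 in the FBP1 step. For these and the lists below, 50.9% of all genes tested were below 0 in the FBP1 step, 5.91% at least 1.5-fold lower and 6.56% higher. In the empty vector step these shares were 48.9%, 3.18% and 3.83%. Of 36 tested small subunit processome genes, 27 were below 0 between FBP1 and empty vector cells, with a median of -0.11, 1 at least 1.5-fold lower and 1 higher, RRP7A at -0.65 and UTP25 at 0.69. Of 46 tested large subunit genes 29 were below 0, with a median of -0.10, 2 at least 1.5-fold lower and 2 higher, from RBM28 at -0.71 to DDX51 at 0.76. Between empty vector and wt cells, 33 of 37 small subunit genes and 40 of 46 large subunit genes were below 0, with medians of -0.21 and -0.25, and 0 and 1 were at least 1.5-fold lower. In both lists the median of the empty vector step was the lower one, and in neither list did the counts of either step at 1.5-fold exceed the shares of all genes. Between FBP1 and wt cells, 33 of 37 small subunit and 37 of 46 large subunit genes were below 0 (49.4% of all genes). The medians were -0.31 and -0.28, with 6 and 8 genes at least 1.5-fold lower (7.81%) and 0 and 1 higher (8.76%).

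The RNA polymerase I and rDNA factors had a median of -0.20 between FBP1 and empty vector cells, with 2 of 19 at least 1.5-fold lower, POLR1G at -0.996 and TCOF1, detected in empty vector cells alone and at least 1.6-fold lower in FBP1 cells. TAF1A, at 0.31, was the highest of them. Between empty vector and wt cells their median was -0.06, with 2 at least 1.5-fold lower, MYBBP1A at -0.81 and POLR1E at -0.73, and 1 higher, TCOF1, by at least 1.5-fold. The polymerase subunit gene POLR1E was also the lowest of them between FBP1 and wt cells, at -1.14. Small nucleolar RNP proteins and their assembly factors had medians of -0.13 and -0.11 in the FBP1 and empty vector steps, with none of 14 past 1.5-fold, from SHQ1 at -0.37 to NUFIP1 at 0.34 in the FBP1 step. Genes of export and cytoplasmic maturation had medians of 0.00 and -0.17, again with none of 14 past 1.5-fold, from LSG1 at -0.36 to RIOK3 at 0.35, so the last stage of assembly was not below 0 as a group in the FBP1 step.

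Of 35 further MYC target genes tested, 24 were below 0 between FBP1 and empty vector cells and 28 between empty vector and wt cells, with medians of -0.17 and -0.16. In the FBP1 step UNG, a DNA repair glycosylase, stood lowest at -0.59 and SLC29A2, a nucleoside transporter, highest at 1.19. C1QBP, a mitochondrial protein, stood at -0.78 between empty vector and wt cells. Genes of purine and pyrimidine synthesis had medians of -0.22 and -0.23 in the FBP1 and empty vector steps, with 1 of 14 at least 1.5-fold lower in the FBP1 step, PRPS2 at -0.63, and ATIC highest at 0.25.

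The regulators around MYC stood differently. Of 14 tested genes of the MYC network 5 were below 0 between FBP1 and empty vector cells, with a median of 0.24, 2 at least 1.5-fold lower and 0 higher. MXD4 and MXI1, which compete with MYC for MAX, stood at 0.35 and 0.51, and MNT, another such repressor, at 0.43, while MXD3 of the same family was lowest at -0.81. MAX had levels of 6.73 in FBP1 cells, 6.65 in empty vector cells and 6.70 in wt cells. Between empty vector and wt cells the list's median was -0.03, and MXD4 stood at 0.55.

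Markers of dividing cells were low in the FBP1 step and near 0 in the step between the controls. All 10 were lower in FBP1 cells than in empty vector cells, 9 of them by at least 1.5-fold, with a median of -0.81, and their median between empty vector and wt cells was 0.01, with 0 of 10 at least 1.5-fold apart. Their summed deposited intensity was 9296 in FBP1 cells, 17806 in empty vector cells and 17984 in wt cells. The 36 genes by contrast had nearly equal medians in both steps in the reported setting. The part of the dividing-cell markers in the lower levels of the 36 genes was not tested, and fewer cells in division and less RNA per cell cannot be told apart in bulk RNA.

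**Figure D5:**
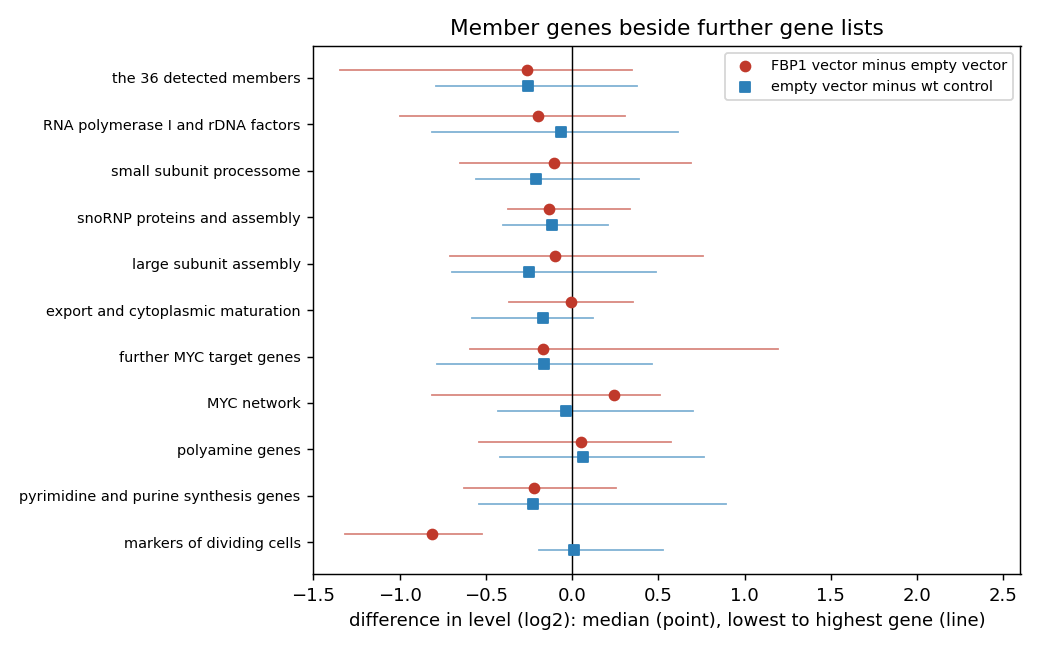
Points give the median and lines the lowest to highest gene of each list, as differences in log2 level on the x axis, for FBP1 cells minus empty vector cells (red circles) and empty vector cells minus wt cells (blue squares). The members' medians are -0.26 and -0.25, whereas the markers of dividing cells stand at -0.81 in the first comparison and at 0.01 in the second.

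Genes with and without CACGTG in the promoter overlapped in every comparison. Over the 11 detected members with the motif the median was -0.34 between FBP1 and empty vector cells, with a range of -1.34 to 0.09, and over the 19 with a promoter that lacked it the median was -0.13, with a range of -0.997 to 0.13. Between empty vector and wt cells the medians were -0.21 and -0.17. ODC1, NOC2L and PPAN, 3 of the 5 genes at least 1.5-fold below empty vector cells, did not hold these letters in the window searched.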

How the data were processed

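Expression was measured on 1 Illumina bead array for each of 3 groups. The first deposited table holds an intensity per probe on a linear scale and, per the file headers, a detection p-value beside it; its values were neither background-subtracted nor normalised between arrays, as the lowest intensities of 66.9, 68.2 and 63.3 on the FBP1, empty vector and wt arrays and the differing medians show. Another deposited table gives each probe's intensity after the authors' processing, with medians of 87.8, 87.9 and 87.8; how it was normalised is not given in the sources used here, and it served as an alternative. Probes lacking a value, 2 of 48107, were left out.

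Intensities were background-corrected from the detection p-values, quantile normalised and taken as log2 by the neqc function (limma 3.58.1, R 4.3.3, offset 16). The background spread is inferred from these p-values, which do not follow intensity alone on any array. The lowest detected and highest undetected intensities were 88.4 and 143.2 on the FBP1 array. They were 91.3 and 8580.5 on the empty vector array, which enters both steps, and 90.3 and 209.6 on the wt array. The sizes of dim genes such as NLE1, NOC2L and PPAN rest on this estimate. The rest used Python 3.11.15, numpy 2.4.6, pandas 2.3.3 and matplotlib 3.10.9. Probes took genes from the platform's annotation (30112 with 1 gene, 8 with several, 17985 unnamed here), and 30073 were matched by gene ID to RefSeq's current symbols. A gene was read from its brightest probe and compared between 2 arrays where either of them detected it at p under 0.01. Where only 1 array detected it, the fold is a lower bound against its own level on the other array or, if higher, the lowest level at which any probe was detected there. The normalisation was checked on simulated intensities with known changes. Alternatives covered background, scaling, offset, detection and choice of probe.

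No test was possible with 1 array per group, and the number of arrays limits the precision. The members and the gene lists were chosen with earlier results of these data known. Values are given for MYC and every detected member; from each further list the lowest and highest gene in the FBP1 step are named, and others (SAT1, C1QBP, MAX, MXD4, MNT, TCOF1, MYBBP1A, POLR1E) were named after their values were seen.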

Additional observations from a re-analysis of the deposited data

How the results depend on the processing

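No paired analysis was possible because each group has 1 array, and for the same reason no replicate could be left out. The members' median stayed below 0 in all 3 comparisons and 0 members were at least 1.5-fold higher in all 11 alternative settings. For FBP1 against empty vector cells, the median of -0.26 became -0.14 and the 5 genes at least 1.5-fold lower became 2 with the authors' processed values, -0.16 and 3 with no background correction, and -0.045 and 3 with median scaling; the count was 2 with scaling on the 75th percentile. The shares of all genes lower by that size were 1.13%, 1.71%, 2.92% and 1.72% in these settings, against 5.91% as reported. For FBP1 against wt cells, the median of -0.45 became -0.31 with the authors' processed values, -0.34 with no background correction and -0.17 with median scaling, and the 17 genes became 9, 10 and 3, and 11 with normexp on all probes. Here the shares of all genes were 2.07%, 2.78%, 2.35% and 3.39%, against 7.81% as reported. The order FBP1, empty vector, wt from low to high held for 9 genes with median scaling. Median scaling moved the median of all genes to 0.21, 0.29 and 0.09 in the FBP1 against empty vector, FBP1 against wt and empty vector against wt comparisons, and 15.4% of all genes were then at least 1.5-fold higher and 2.92% lower in FBP1 cells than in empty vector cells; relative to all genes the members stood at -0.25, -0.46 and -0.27, against -0.25, -0.46 and -0.26 as reported. With no background correction the sizes of dim genes shrink by construction. TSR1 stood at 0.16 between FBP1 and wt cells by its dimmest detected probe. Of 1181 further values of single members, 1103 moved by at most 0.25. The dimmest members, with mean levels under 6, were 5 of 36, and their sizes are the least certain.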
